A study of Mus musculus with 8 samples.

Results

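The genes described here are the mouse enzymes that start, lengthen and cap mucin-type sugar chains, together with their close relatives that act on other chains. They were chosen by symbol from the array's probe annotation: symbols that begin with Galnt, C1galt1, Gcnt, B3gnt, B3galt, B4galt, St3gal, St6gal (St6galnac included), St8sia or Chst, or that are Fut followed by a number. The rule took 116 probes of 80 genes, out of 22941 probes and 15123 genes with a symbol and 38467 probes in all. Of the 80 genes, 54 had 1 probe and 26 had 2 or more, which were averaged.

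The samples were ileum from mouse embryos late in gestation, labelled E18.5. LGR5 null (LGR5-/-) ileum was set against wild-type (LGR5 +/+) ileum in 4 pairs of embryos born to 3 heterozygous couples, so some pairs share parents, and the labels do not say which. LGR5, a Wnt pathway receptor, is best known as a marker of stem cells in the intestine. Strain, sex and how the null allele was made are likewise not stated. Each pair was hybridised on 2 oligonucleotide arrays with the dyes exchanged, so there were 8 arrays and 4 replicates. All values are log2 ratios of null over wild type, averaged over the 2 arrays of a pair and given as mean ± SD over the 4 pairs.

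A mucin-type chain starts when a Galnt enzyme puts N-acetylgalactosamine on a serine or threonine of a mucin. C1galt1, which needs the chaperone C1galt1c1 (Cosmc), adds galactose to make core 1, and Gcnt enzymes add the branch of core 2. B3gnt, B3galt and B4galt enzymes lengthen the arms, and fucosyltransferases, sialyltransferases and sulfotransferases cap them. In the intestine, goblet cells make the secreted mucins that carry most of these chains, and terminal fucose, sialic acid and sulfate give mucus its charge and its binding sites for bacteria.

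Across all genes, 0 of 15123 passed an adjusted p of 0.05 in limma (0%, lowest adjusted p 0.656), and 956 had an unadjusted p under 0.05. The files hold ratios only, so no expression level could be set against markers of the ileum. The direction of every ratio was taken from Lgr5, whose ratios were -1.61, -0.92, -1.92 and -1.93 in pairs 1 to 4. The arrays of a pair correlated across probes at r = 0.309 to 0.779. Pairs 1 and 3 stood apart from the others. In pair 1 the medians of 12 goblet cell, 3 Y-linked, 15 posterior Hox and 9 stress genes were -0.95, -2.42, -0.13 and 0.55. The most extreme Y-linked gene there was Eif2s3y at -4.56. The most extreme posterior Hox genes were Hoxd10 and Hoxa11 at -3.81 and -2.61, while Hoxc9 stood at 0.75. Of the stress genes, Fos and Atf3 were the highest at 2.10 and 1.70. In pair 3 the medians of liver, pancreas and erythroid markers were 1.95, 1.84 and 1.47. In tissue RNA, fewer cells of a type and less RNA per cell cannot be told apart.

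St6galnac1 had the highest ratio of the 80 members in every pair, by a small margin in pair 3 (0.54, with B3gnt3 at 0.50), and most other members had means close to 0. Over the 80 genes the median mean ratio was -0.034, against 4.17e-05 over all genes. A mean below 0 was found for 51 members, 63.7%, where all genes gave 50%. The number depended on the dye orientation. It was 54 with null in Cy5 alone (member median -0.046, all genes -0.004) and 43 with null in Cy3 alone (member median -0.019, all genes 0.0025). Of the members, 11 lay below 0 in all 4 pairs (13.8%, all genes 8.28%) and 4 lay above 0 in all 4 (5%, all genes 7.31%). Beside this, means were below 0 for 12 of 12 fibroblast and matrix markers, 9 of 9 endothelial markers and 7 of 7 enteric neuron and glia markers. All 4 pairs lay below 0 for 9, 5 and 1 of these. Means were above 0 for 5 of 8 smooth muscle markers and 7 of 7 leukocyte markers. The part of these cells in the members' ratios was not tested. None passed the threshold over all genes (limma, lowest adjusted p 0.701). At an unadjusted p under 0.05 there were 7 members, or 8.75% against 6.32% of all genes, of which 3 were higher in null ileum (all genes 2.64%) and 4 lower (all genes 3.68%). That number was 11 without pair 1 (all genes 7.03%) and 4 without pair 3 (all genes 4.83%). Of the 116 member probes, 7 reached the same unadjusted p, in a fit where 5.47% of all tested probes did, and none passed after adjustment.

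**Figure D1:**
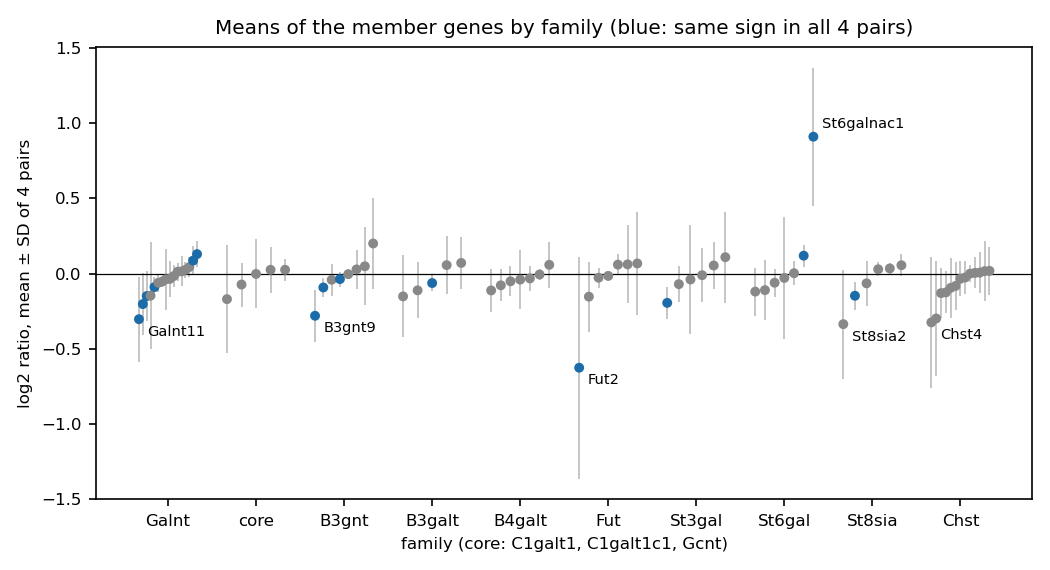
Mean log2 ratio of null over wild type for each of the 80 member genes, grouped by family along the horizontal axis, with bars of 1 SD over 4 pairs; blue points had the same sign in all 4 pairs. St6galnac1 stands at 0.91 and Fut2 at -0.63, and the other members lie between -0.34 and 0.20.

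St6galnac1 adds sialic acid to the first N-acetylgalactosamine of a mucin chain, which makes the sialyl-Tn structure and stops the chain from growing. Its single probe gave 0.68, 1.58, 0.54 and 0.85 in pairs 1 to 4. Every pair was above 0, on both dye orientations, with the highest value in pair 2 and the lowest on a single array at 0.30, in pair 3. The mean was 0.91 ± 0.46 (SD, n = 4), or 1.88-fold, with a 95% interval of 0.45 to 1.38 on the log2 scale. Its unadjusted p was the lowest of the 80 members (limma, 0.00403) and ranked 84 among all 15123 genes, with an adjusted p of 0.701. By size of the mean above 0 it ranked 7 among all genes. A limma fit of the 8 single arrays, in which the pair was a random block, gave an adjusted p of 0.0477. In that fit 59 genes passed (0.39%), and St6galnac1 was the single member among them. The fit used a single correlation within pairs for all genes and counted arrays of the same RNA as partly separate. For St6galnac1 the pairs differed by more than the arrays of a pair (moderated F-test, adjusted p = 0.0195), so the value of 0.0477 may be too low.

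The relatives of St6galnac1 stood far closer to 0. St6galnac2, which sialylates the same sugar, mainly in chains that already carry galactose, gave 0.02, 0.18, 0.12 and 0.16, a mean of 0.12 ± 0.07 (SD, n = 4; limma unadjusted p = 0.0319, adjusted p = 0.748). The RefSeq gene table lists it next to St6galnac1 on chromosome 11. On the other side, the nearest measured genes, Jmjd6 and Mettl23, gave 0.15 ± 0.35 and 0.15 ± 0.34. St6galnac3, St6galnac4, St6galnac5 and St6galnac6 had means of 0.0023, -0.06, -0.11 and -0.12, and each had pairs on both sides of 0. St6gal1, which sialylates the ends of N-linked chains, gave -0.59, 0.07, 0.38 and 0.02. Its mean was -0.03 ± 0.41, and without pair 1 it was 0.16.

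**Figure D2:**
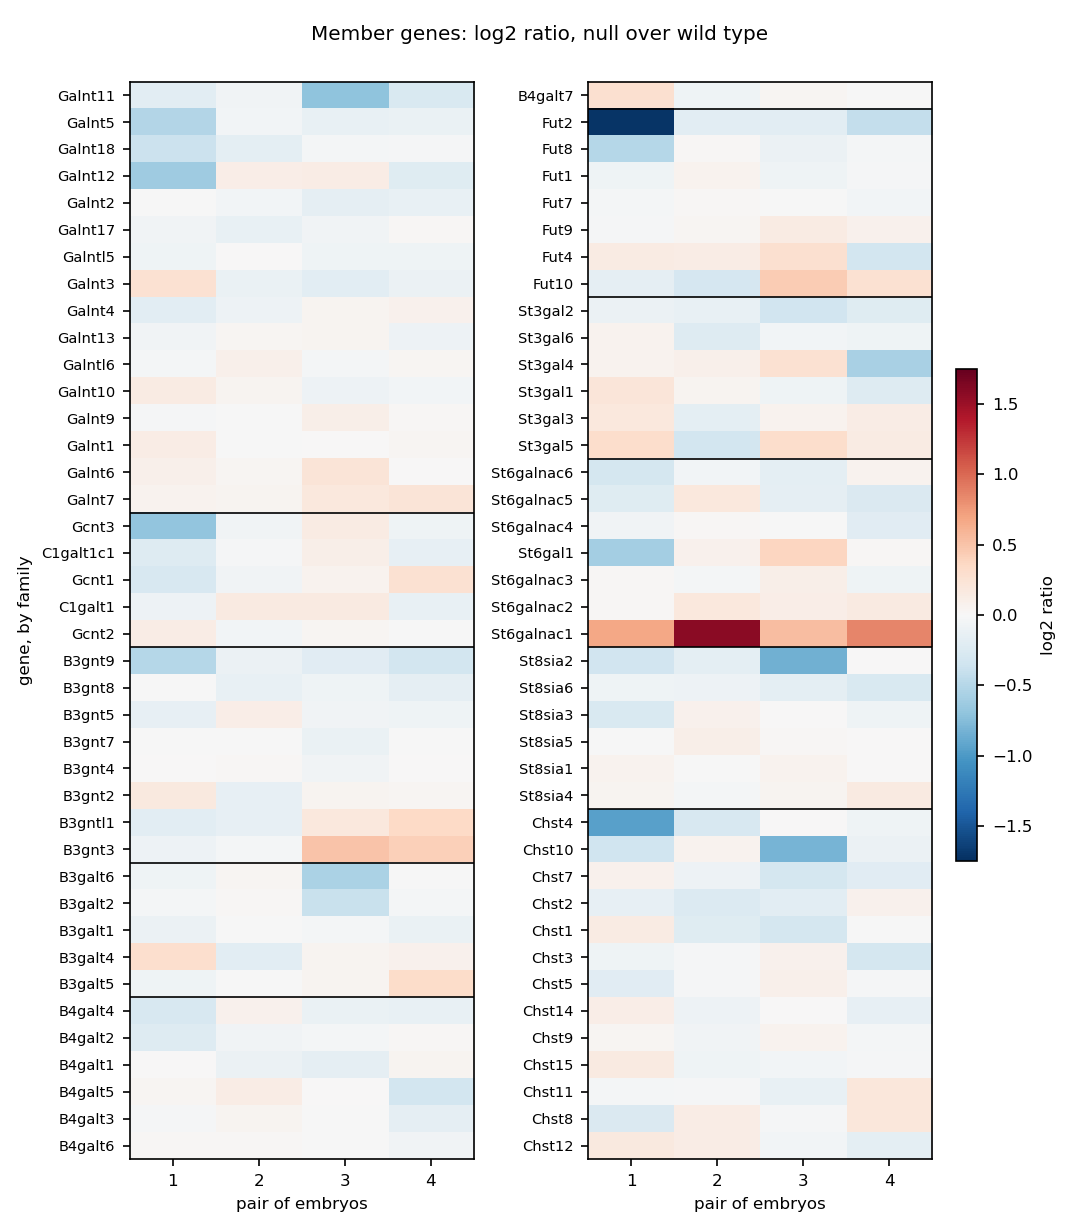
Log2 ratio of null over wild type for each of the 80 member genes (rows, ordered by family and then by mean) in each of the 4 pairs (columns), red above 0 and blue below. St6galnac1 is red in all 4 columns, Fut2 is darkest in pair 1 at -1.72, and pairs 1 and 3 hold most of the other strong colours.

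Among the enzymes that start mucin chains, 10 of 16 Galnt genes had a mean below 0, and 4 lay below 0 and 2 above 0 in all pairs. Together these make 37.5% with 1 sign in all pairs, against 15.6% of all genes (8.28% below and 7.31% above). None passed over all genes. Galnt11 gave -0.18, -0.06, -0.71 and -0.26, lowest in pair 3, for a mean of -0.30 ± 0.28 (SD, n = 4; limma unadjusted p = 0.0444, adjusted p = 0.779). Without pair 3 it was -0.17. Galnt7, which prefers peptides that already carry a sugar, gave 0.07, 0.04, 0.18 and 0.23. Its mean was 0.13 ± 0.09 (unadjusted p = 0.0329, adjusted p = 0.750), and its null in Cy3 array of pair 1 stood at -0.18. Galnt6 was also above 0 in every pair, at 0.09 ± 0.10.

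Several other Galnt genes had their most extreme value in pair 1. Galnt12, an enzyme of the digestive tract, gave -0.62, 0.11, 0.13 and -0.21. Its mean of -0.15 ± 0.36 (SD, n = 4) became 0.01 without pair 1. Galnt5 gave -0.51 in that pair, and its other values ran from -0.13 to -0.05. Galnt3, by contrast, was at 0.26 there, with other values from -0.18 to -0.11. The widely expressed Galnt1 and Galnt2, with 4 and 2 probes, gave 0.04 ± 0.06 and -0.09 ± 0.07.

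The core enzymes had means near 0, and none of the 5 measured genes kept 1 sign in all 4 pairs. C1galt1, the core 1 synthase, gave -0.08, 0.15, 0.16 and -0.13, and its 2 probes had nearly equal means of 0.026 and 0.024. Its mean was 0.03 ± 0.15 (SD, n = 4), with a 95% interval of -0.14 to 0.19, and it lay at -0.02 without pair 2 or pair 3. C1galt1c1 gave -0.23, -0.02, 0.10 and -0.15, a mean of -0.07 ± 0.15. That gene and Chst7 are the 2 members on the X chromosome, and Chst7 stood at 0.08 in pair 1, where the Y-linked genes were low.

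The branching enzymes differed between pairs. Gcnt3, the core 2 and core 4 enzyme of mucin-secreting epithelia, gave -0.69, -0.06, 0.15 and -0.08. Its mean was -0.17 ± 0.36 (SD, n = 4), and without pair 1 it was 0.0023. Gcnt1, the widely expressed core 2 enzyme, stood at -0.28, -0.07, 0.06 and 0.27, so its mean of -0.0026 ± 0.23 hid pairs of opposite sign. Its 3 probes disagreed, with means from -0.06 to 0.04. From pair 1 to pair 4, 1 probe went from -0.335 to 0.55, while another stayed between -0.05 and 0.08. Gcnt2 makes the branch of the I blood group antigen, and its 4 probes had means from -0.11 to 0.17.

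In the families whose enzymes mostly lengthen chains, a mean below 0 was found for 5 of 8 B3gnt, 3 of 5 B3galt and 6 of 7 B4galt genes, and none passed over all genes. B3gnt9 lay below 0 in every pair, at -0.50, -0.10, -0.19 and -0.33, a mean of -0.28 ± 0.17 (SD, n = 4; limma unadjusted p = 0.0124, adjusted p = 0.727). B3gnt3, which extends core 1 chains, separated the pairs into 2 sets, with -0.09 and -0.03 in pairs 1 and 2 and 0.50 and 0.41 in pairs 3 and 4. Its mean of 0.20 ± 0.30 was the second highest of the members. B3galt5, which makes the type 1 ends of gut glycans, gave 0.07 ± 0.17, and B4galt1, the main galactosyltransferase of N-linked chains, -0.05 ± 0.10.

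For 2 genes the probes stood far apart in pair 3. B3galt6, an enzyme of the linkage between proteoglycans and their chains, had probe means of -0.38 and 0.08, and in pair 3 those probes stood at -1.30 and 0.19. B3galt2 had probe means of -0.27 and 0.04, with -0.91 and 0.13 in pair 3. The gene means, -0.15 ± 0.27 and -0.11 ± 0.19 (SD, n = 4), were therefore pulled down by 1 probe each in 1 pair. Probe means of opposite sign were found in 10 of the 26 members with several probes, 38.5%, against 40.9% of all such genes. In other members with opposite signs the probe means differed by less than 0.3. In single pairs their probes could stand further apart, as for B4galt5 in pair 4 (0.05 and -0.69) and Fut10 in pair 1 (0.01 and -0.31).

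Fut2 had the lowest mean of all members. It encodes the alpha-1,2-fucosyltransferase of gut epithelium that makes the H antigen on mucus. Its single probe gave -1.72, -0.19, -0.18 and -0.41 in pairs 1 to 4, below 0 on all 8 arrays and far lower in pair 1 than elsewhere. The mean was -0.63 ± 0.74 (SD, n = 4; 0.647-fold; limma unadjusted p = 0.0814, adjusted p = 0.802), and -0.26 without pair 1. Its relative Fut1, with the same activity, gave -0.03 ± 0.07. Fut8, which adds the core fucose of N-linked chains, gave -0.50 in pair 1, and its other values ran from -0.10 to 0.02. The alpha-1,3-fucosyltransferases Fut4, Fut7 and Fut9 had means of 0.06, -0.02 and 0.06. Fut10 gave -0.15 and -0.29 in pairs 1 and 2 and 0.44 and 0.27 in pairs 3 and 4, a mean of 0.07 ± 0.35.

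Among the sialyltransferases outside the St6gal family, 2 lay below 0 in every pair. St3gal2, which sialylates galactose of core 1 and of gangliosides, gave -0.11, -0.13, -0.34 and -0.21, a mean of -0.20 ± 0.11 (SD, n = 4; limma unadjusted p = 0.0113, adjusted p = 0.727), with probe means of -0.31 and -0.08. St8sia6 gave -0.07, -0.09, -0.17 and -0.27, a mean of -0.15 ± 0.09 (unadjusted p = 0.0229, adjusted p = 0.727). St3gal5, which makes the ganglioside GM3, stood at 0.31, -0.33, 0.31 and 0.14, a mean of 0.11 ± 0.30. St3gal4 stood at 0.06, 0.09, 0.26 and -0.57, a mean of -0.04 ± 0.36. Both had pairs on either side of 0.

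A single array of pair 3 moved the mean of St8sia2, which makes polysialic acid on the neural adhesion molecule NCAM. The gene gave -0.33, -0.18, -0.84 and 0.0015 in pairs 1 to 4, and in pair 3 the arrays stood at -0.13 with the null sample in Cy5 and -1.56 with it in Cy3. The sulfotransferase Chst10, which makes the neural HNK-1 epitope, showed the same in pair 3, at -0.14 and -1.48. Without that array the means went from -0.34 to -0.16 for St8sia2 (limma unadjusted p 0.0665 and 0.0449, adjusted p 0.800 and 0.739), from -0.30 to -0.13 for Chst10 and from -0.11 to -0.02 for B3galt2. St8sia3, a ganglioside sialyltransferase, was higher with the null sample in Cy5 than in Cy3 in all 4 pairs, by 0.405 to 0.665. The arrays differed by more than 0.5 in 4 of the 320 combinations of gene and pair, and the median difference was 0.0953.

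**Figure D3:**
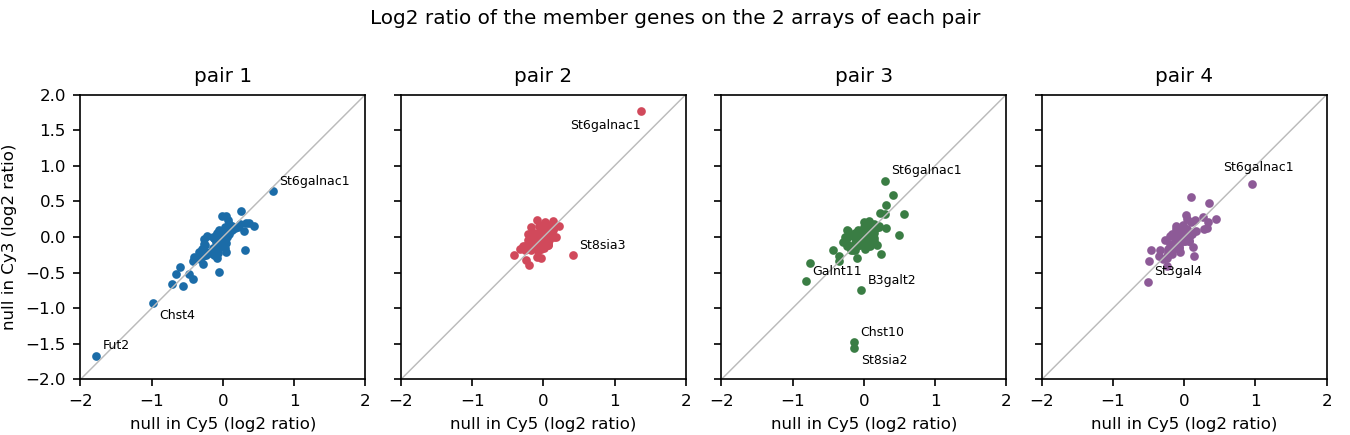
Log2 ratios of the 80 member genes on the 2 arrays of each pair, with the null sample in Cy5 (horizontal axis) and in Cy3 (vertical axis), 1 panel a pair and the line of equal values in grey. St6galnac1 lies at the upper right in pairs 1, 2 and 4 and at the top of the vertical axis alone in pair 3 (0.30 and 0.79), and in pair 3 St8sia2, Chst10 and B3galt2 lie low on the vertical axis alone.

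Of the 13 sulfotransferases, 9 had a mean below 0, none kept 1 sign in all pairs and none passed over all genes. Chst4, which puts sulfate on N-acetylglucosamine of mucin-type chains, gave -0.95, -0.28, 0.0035 and -0.07, a mean of -0.33 ± 0.44 (SD, n = 4), and -0.12 without pair 1. Its relative Chst5 gave -0.03 ± 0.12. The chondroitin and dermatan sulfotransferases Chst3, Chst11, Chst12, Chst14 and Chst15, which act on proteoglycans, had means from -0.08 to 0.02.

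Promoter sequences of 60 of the 80 members were taken from RefSeq (GRCm38.p6), each from 250 bases before to 50 bases after a transcript start. They were searched on both strands for CTTTGA, the core of the site of the TCF and LEF factors of the Wnt pathway, and for TTTATG, a site of the intestinal factor Cdx2; a match to one cannot overlap a match to the other. CTTTGA was held by 5 of 60 members, 8.33%, against 16% of all 32851 promoters, and TTTATG by 5, 8.33%, against 11.9%. Among members only these 60 were searched, whereas the 32851 promoters held every listed start and no chromosome was left out. These shares are therefore over unlike sets. Shown are Chst4 (chr8:110039285-110039584, minus strand) and St6gal1 (chr16:23224490-23224789, plus strand, the first of 3 listed starts), both lowest in pair 1 and highest in pair 3. Galnt11 (chr5:25222622-25222921, plus strand, the first of 2), below 0 in all pairs, is shown as well. Capitals mark CATAAA, which is TTTATG on the other strand, once each in Chst4 and St6gal1, and neither motif is in the window of Galnt11. A match is a description of letters and not a measured site.
Chst4: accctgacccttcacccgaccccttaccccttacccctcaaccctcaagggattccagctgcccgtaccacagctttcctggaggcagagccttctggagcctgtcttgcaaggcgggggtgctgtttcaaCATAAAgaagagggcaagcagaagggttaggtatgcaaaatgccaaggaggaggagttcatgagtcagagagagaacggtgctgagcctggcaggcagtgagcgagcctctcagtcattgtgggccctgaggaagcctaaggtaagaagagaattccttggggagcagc
St6gal1: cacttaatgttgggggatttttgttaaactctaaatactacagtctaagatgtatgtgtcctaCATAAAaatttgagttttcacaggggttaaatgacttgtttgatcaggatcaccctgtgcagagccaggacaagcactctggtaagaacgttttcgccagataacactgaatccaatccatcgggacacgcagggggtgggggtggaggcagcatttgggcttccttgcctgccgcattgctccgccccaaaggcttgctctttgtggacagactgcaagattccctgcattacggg
Galnt11: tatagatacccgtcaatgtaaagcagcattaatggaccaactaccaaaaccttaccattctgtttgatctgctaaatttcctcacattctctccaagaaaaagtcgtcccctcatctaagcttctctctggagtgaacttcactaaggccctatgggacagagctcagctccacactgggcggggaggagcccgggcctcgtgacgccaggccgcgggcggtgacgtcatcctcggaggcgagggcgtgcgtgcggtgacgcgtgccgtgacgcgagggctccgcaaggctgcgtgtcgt

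The members with values beyond 0.5 in either direction were counted in each pair. In pair 1 there were 7 below -0.5 and 1 above 0.5, 10% of members against 5.21% of all genes. The 7 were Fut2, Chst4, Gcnt3, Galnt12, St6gal1, Galnt5 and B3gnt9. In pair 2 St6galnac1 was the single one (all genes 0.913%). In pair 3 there were 6 (7.5%, all genes 4.25%), with St8sia2, Chst10, Galnt11 and B3galt6 below and B3gnt3 and St6galnac1 above. In pair 4 there were 2, St3gal4 and St6galnac1 (2.5%, all genes 1.71%). St6galnac1 was the only member beyond 0.5 in more than 1 pair.

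The test between pairs called 38 of 80 members, 47.5%, against 30.9% of all genes (limma moderated F-test on 8 arrays with a dye term). The error in that test is between arrays of the same RNA, so variation between embryos is enough to pass it, and it says nothing on genotype. The called members with the largest ranges between pairs were Fut2 (1.54, adjusted p = 6.01e-05), St6galnac1 (1.03, adjusted p = 0.0195), St6gal1 (0.97), Chst4 (0.96), Gcnt3 (0.84), St3gal4 (0.83), Galnt12 (0.76) and Fut10 (0.73). Among the members described with all their values, those with an unadjusted p of 0.05 or more in the limma test of genotype ran from 0.0665 for St8sia2 to 0.979 for Gcnt1. In the test between pairs, the number of members without pair 1 was 9 (all genes 7.41%), and without pair 2 it was 25 (all genes 20.7%).

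Goblet cell markers differed between pairs, and the members can be read beside them. All 12 measured markers, such as Tff3, Spdef and Zg16, had a mean below 0, and their medians were -0.95, -0.05, 0.01 and -0.40 in pairs 1 to 4. Of the 12, 3 lay below 0 in all 4 pairs (25%, all genes 8.28%). Tff3, Spdef and Zg16 were above 0 in pair 3, at 0.15, 0.14 and 1.00. Of the 80 members 27 were lowest in pair 1 (33.8%, all genes 31.4%) and 20 were highest there (25%, all genes 28.8%). Fut2, Chst4, Gcnt3, Galnt12 and St6gal1, described above for their large values or ranges, were among the lowest, while St3gal5, Galnt3 and Galnt1 stood at 0.31, 0.26 and 0.14 in that pair. Fibroblast and matrix markers had medians of -0.376, -0.171, -0.168 and -0.306 in pairs 1 to 4, the same order of pairs as the goblet medians. The medians of enteric neuron and glia markers and of stress genes in pair 1 were -0.54 and 0.55. St6galnac1 was at 0.68 there and had its highest value in pair 2, where the goblet median was near 0. Paneth cell markers had medians of 0.89, 0.06, 0.46 and 0.35, with 7 of 8 measured means above 0, and the median was lowest in pair 2. Single Paneth markers did not share that order. In pair 2 Defa20 and Defa21 had their lowest values, -0.28 and -0.006, while Mmp7 stood at 0.78 and Ang4 had its highest value, 0.46. The part of any of these in the members' ratios was not tested.

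**Figure D4:**
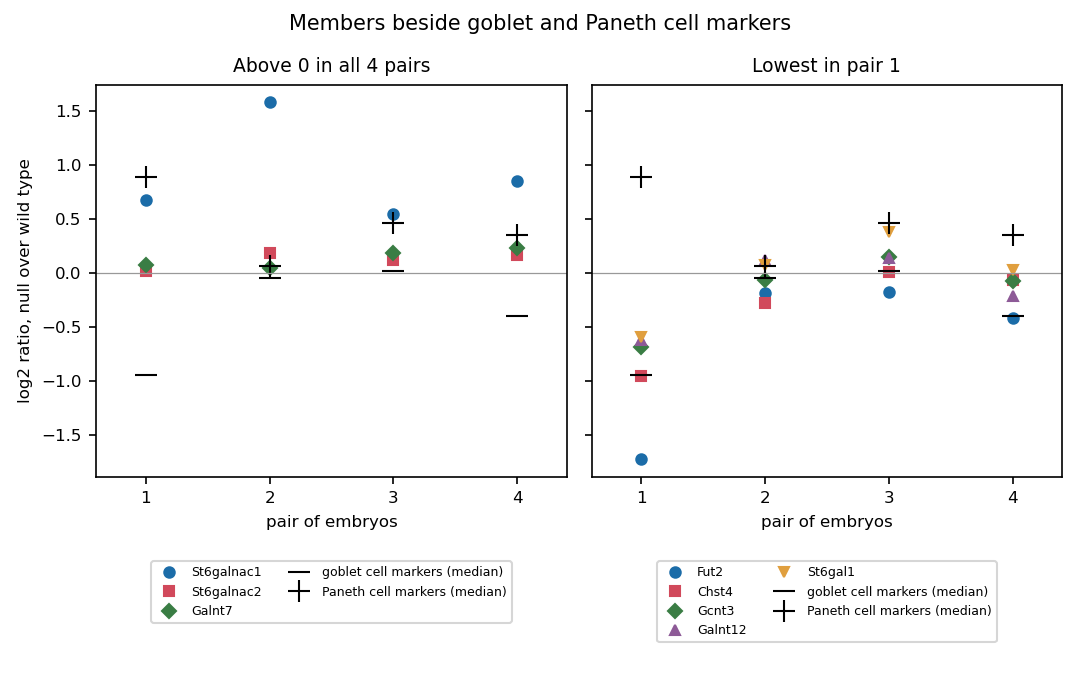
Log2 ratio of null over wild type in pairs 1 to 4 for St6galnac1, St6galnac2 and Galnt7 (left) and for Fut2, Chst4, Gcnt3, Galnt12 and St6gal1 (right), with the medians of the goblet and Paneth cell marker lists as black signs. The genes on the right and the goblet median are lowest in pair 1, while St6galnac1 is above 0 throughout and highest in pair 2.

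Genes that supply and share these pathways showed no call over all genes either. Of 25 measured genes of sugar nucleotide synthesis and Golgi import, 9 had a mean above 0 and 16 below, with a list median of -0.02. The largest means were those of Pgm3, of UDP-N-acetylglucosamine synthesis, at -0.24 ± 0.48 (SD, n = 4) with -0.95 in pair 3, and Slc35a1, the transporter of CMP-sialic acid, at -0.20 ± 0.22. Pgm3 ran from -0.07 to 0.05 in the other pairs, and the test between pairs did not call it (limma moderated F-test, adjusted p = 0.210). In pair 1 Slc35a1 stood at -0.48, Gne, the first enzyme of sialic acid synthesis, at -0.69 and Uap1 at -0.52; Gne and Uap1 were named after their values were seen.

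Of 10 measured mucin and sialomucin core proteins 8 had a mean below 0, with a list median of -0.02. The 8 include Muc15 and Smgc, at -0.0009 and -0.0012. Muc2, Muc3, Muc5ac, Muc6, Muc16 and Muc17 were listed but not matched to a measured gene, so nothing is said of them. Cd34, a sialomucin of blood vessels, lay below 0 in every pair, at -0.38 ± 0.08 (SD, n = 4; limma unadjusted p = 0.000323, adjusted p = 0.656), beside endothelial markers with 9 of 9 means below 0. The epithelial mucins Muc1 and Muc13 gave -0.04 ± 0.07 and 0.07 ± 0.20. Of 10 glycosidases of terminal sugars 6 had a mean above 0, and the sialidase Neu2 lay above 0 in every pair at 0.19 ± 0.09 (unadjusted p = 0.00827, adjusted p = 0.727). Of 25 other Golgi glycosyltransferases 13 had a mean above 0 and 12 below. B3galnt1, the globoside synthase, at -0.17 ± 0.08, and Pofut2, which fucosylates thrombospondin repeats, at -0.15 ± 0.10, lay below 0 in every pair (unadjusted p = 0.00914 and 0.0261, adjusted p = 0.727 and 0.731).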

How the data were processed

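The authors deposited a table of log ratios, with 0 missing values. Per the labels, cDNA made from ileum RNA was transcribed into antisense RNA with aminoallyl groups, to which the dyes were attached. No source used here gives the log base, the direction or the normalization, and the deposited values were read as log2, with array medians from -0.002 to 0.002. Arrays of a pair with exchanged dyes correlated positively, so the ratios were treated as having 1 direction, and Lgr5, below 0 on all 8 arrays, set null over wild type.

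Symbols came from the platform annotation and were matched by gene identifier to RefSeq (GRCm38.p6), which changed 0. Probes were averaged per gene and arrays per pair. Means were tested with limma 3.58.1 in R 4.3.3 (intercept only, 2-sided, Benjamini-Hochberg over 15123 genes), and probes over 36591 of 38467, leaving out 4 identifier classes without genes. Simulated data held 15123 genes. For null against wild type, 98 of 100 genes changed by 1 on the log2 scale and 100 of 100 changed by 2 were recovered. Between pairs, it was 85 of 100 shifted by 0.5 and 97 of 100 shifted by 1. Of 14923 unchanged genes, the tests of genotype and between pairs called 13 and 27. The simulated noise was independent and normal, and many large changes were planted together, so these shares do not carry over to the real arrays. There 0 of 15123 genes passed the test of genotype, Lgr5 at a mean of -1.59 included. With 4 pairs the smallest 2-sided p of an exact permutation of signs is 0.125, and the number of arrays limits the precision.

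Members and lists were chosen with earlier results of these data known. Named members were those with 1 sign in all pairs and an unadjusted p under 0.05, the 6 largest means in each direction, the 8 largest ranges among those called between pairs, genes whose probes had opposite signs and differed by 0.3 or more, and the core enzymes with Fut2. Other members named were chosen after their values were seen. From each list it was up to 6 genes by the first criterion, otherwise the 2 largest means. Alternatives left out pairs, used single dye orientations, other scalings, probe medians, a random block or an ordinary test. One more, without the null in Cy3 array of pair 3, was chosen after seeing the data.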

Additional observations from a re-analysis of the deposited data

Results flagged for a closer look

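A gene is given here when 1 pair lay far from the rest, with nearly all of the spread over 4 pairs in that single gap. Chance gives this for about 1 in 20 genes, or about 4 of the 80 members. Found were 7, or 8.75%, close to the 8.54% of all 15123 genes. Of the 7, 3 were in pair 1, 1 in pair 2 and 3 in pair 3. In pair 1 Fut2 stood at -1.72, against -0.41 to -0.18 in the other pairs, Galnt5 at -0.51, against -0.13 to -0.05, and Galnt3 at 0.26, against -0.18 to -0.11. In pair 3 B3galt2 stood at -0.39, against -0.04 to 0.02, B3gnt7 at -0.11, against -0.014 to -0.011, and B3gnt4 at -0.055, against 0.009 to 0.017. In pair 2 Galntl5, a relative of the Galnt enzymes, stood at 0.002, against -0.078 to -0.069. The last 3 genes had ranges between pairs of at most 0.10, and the test between pairs did not call them.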

How the results depend on the processing

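No member passed over all genes in any setting except 1, St6galnac1 at 0.91, in the limma fit of 8 single arrays with a random block for the pair (adjusted p = 0.0477). That fit counted arrays of the same RNA as partly separate. Leaving out each pair in turn gave St6galnac1 means from 0.69 to 1.03. Its adjusted p over the other settings ran from 0.311 to 0.943. The number of members at an unadjusted p under 0.05 was 7. It was 4 to 11 without 1 pair (all genes 3.58% to 7.1%), 13 with the random block and 14 with null in Cy5 alone, where all genes gave 9.46% and 11%. The probe-level fit called 0 of 116 member probes, with all probes of the table too, and 7 had an unadjusted p under 0.05. The test between pairs called 9 to 41 members without 1 pair (all genes 7.41% to 32.6%), and 27 without the dye term (all genes 20.5%). Members with a mean below 0 numbered 43 to 54, with the 43 in the setting of null in Cy3 alone.

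Of the 24 members that the naming rule took, 18 kept their sign in the 9 settings that kept all pairs or left out pairs 1 and 3 together, and 15 also when 1 pair or 1 array was left out. Without pairs 1 and 3 the sign turned for B3galt6 (0.011), Fut10 (-0.010), Gcnt1 (0.10), St3gal5 (-0.093) and St6gal1 (0.048). With null in Cy3 alone it turned for Fut10 (-0.022), Gcnt1 (0.043) and St6gal1 (0.080), with null in Cy5 alone for St3gal4 (0.057), and with quantile normalization for Gcnt1 (0.027). Leaving out 1 pair or array gave C1galt1 means from -0.021 to 0.077, Fut10 from -0.057 to 0.19, Galnt12 from -0.24 to 0.012, Gcnt1 from -0.094 to 0.088, Gcnt3 from -0.28 to 0.0023, St3gal4 from -0.14 to 0.14 and St6gal1 from -0.17 to 0.16. The cause of these turns was not tested.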
